A study of Homo sapiens with 72 samples.

Results

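The members described here are the mature miRNAs of DU145 cells without LIN28A, read in 12 small RNA libraries out of 72 samples in the series, 36 of which are small RNA libraries. DU145 is a human prostate cancer line derived from a brain metastasis. The libraries were chosen by their labels and compare 4 wildtype libraries with 8 libraries of TUT4/7 mutants, 4 from each of 2 CRISPR clones named mutant_1 and mutant_2. The table listed 2588 mature miRNA names, of which 1741 had at least 1 read in these libraries and 656 had enough reads to be tested. The question of the comparison was which miRNAs differ in abundance once both uridylyl transferases are disrupted, and the families and genomic clusters that moved in both clones are described.

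All groups were LIN28A negative. The wildtype libraries came from the parental line (TUT4+, TUT7+) at passages above 150. The mutant_1 libraries (TUT4-, TUT7-) came from clone 8.1.3.4 at passages 9 to 12. The mutant_2 libraries (TUT4-, TUT7-) came from passages 8 to 11 and carry clone names that start with 163.4.26 and differ in the last number between replicates. In both, a Cas9 nickase had been directed at exon 12 of TUT4 and exon 14 of TUT7. Replicates within a group are consecutive passages, so the p-values measure the spread between passages of a line. Clone derivation, passage and genotype changed together between wildtype and mutants and cannot be told apart. A count here is a share of the reads of a library, so less of a miRNA per cell and more of the others cannot be told apart.

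miRNAs are excised as hairpins by Drosha and cut by Dicer into a duplex whose 5p or 3p arm is loaded into Argonaute, where bases 2 to 8 (the seed) pair with target mRNAs. TUT4 (ZCCHC11) and TUT7 (ZCCHC6) are terminal uridylyl transferases that add U residues to the 3′ ends of RNAs, among them pre-miRNAs and mature miRNAs. In the presence of LIN28A they add long U tails to let-7 precursors, which are then degraded. Without LIN28A, a single added U helps Dicer to process let-7 precursors that have a 1-base 3′ overhang, the so-called group II. The let-7 family is best known as a repressor of growth genes such as HMGA2, MYC and RAS.

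The libraries held 6128319 to 10665491 mature miRNA reads, and miR-21-5p took 52.1% to 58.9% of them. The TMM factors that scale the libraries to each other differed by group, at 0.917 to 1.124 in wildtype, 0.785 to 0.881 in mutant_1 and 1.085 to 1.307 in mutant_2. The mRNA of the targeted genes was read over the whole gene in 12 mRNA libraries of the same groups. ZCCHC11 (TUT4) stood at 58.1 ± 9.66 CPM (read counts per 1000000; SD, n = 4 here and below) in wildtype, 12.3 ± 4.72 in mutant_1 and 39.5 ± 8.66 in mutant_2, a log2 change of -2.22 (SE 0.25, adjusted p = 1.01e-05) and -0.56 (SE 0.23, adjusted p = 0.0758), so that the change in mutant_2 did not pass the test. ZCCHC6 (TUT7) stood at 44.2 ± 8.40, 14.4 ± 5.74 and 22.6 ± 5.38 CPM, a log2 change of -1.59 (SE 0.25, adjusted p = 0.000184) and -0.97 (SE 0.24, adjusted p = 0.00606). The share of reads with a non-templated 3′ U was 1.77% to 1.97% in the wildtype libraries, 0.089% to 0.09% in mutant_1 and 0.184% to 0.225% in mutant_2, so every mutant library lay far below every wildtype library. Epithelial miRNAs were present in each library, with miR-200c-3p at 1350 to 4400 CPM, although miR-205-5p reached at most 0.731 CPM. Of these markers miR-200b-3p, miR-200a-3p, miR-429 and miR-203a-3p were called lower in both clones, and miR-200c-3p and miR-141-3p were called in 1 clone. miR-203a-3p had means of 36.6 CPM in wildtype, 14.5 in mutant_1 and 25.1 in mutant_2. Defining miRNAs of blood cells (miR-142, miR-223, miR-451a), neurons (miR-124) and pluripotent cells (miR-302, miR-367) stayed at or below 2.47 CPM. Of the markers of other cells, the endothelial miR-126-3p and miR-126-5p were read at 357 to 482 and 169 to 220 CPM and the fibroblast miR-199a-3p at 20.0 to 69.7 CPM, none of them called in a clone, while miR-143-3p, miR-214-3p and the liver miR-122-5p reached at most 2.99, 7.41 and 5.16 CPM. The muscle miR-1-3p stood at 4.57 to 22.6 CPM and was called in opposite directions in the 2 clones, and miR-206 was at 0 in every library. The part of such cells in the results was not tested.

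The mature sequences that the results turn on are printed from RefSeq (GRCh38.p14, where 564 of the 656 tested names were matched), with the seed in capitals and the position of the mature miRNA in parentheses. The 5p arms of let-7 share 1 seed, and the first 4 of these fell in both clones while the last 2 were called in neither:
let-7a-5p (chr11:122146568-122146589, minus strand and chr22:46112752-46112773, plus strand and chr9:94175962-94175983, plus strand): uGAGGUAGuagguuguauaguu
let-7f-5p (chr9:94176353-94176374, plus strand and chrX:53557246-53557267, minus strand): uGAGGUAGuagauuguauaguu
let-7b-5p (chr22:46113691-46113712, plus strand): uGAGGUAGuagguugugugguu
miR-98-5p (chrX:53556299-53556320, minus strand): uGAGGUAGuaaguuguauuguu
let-7d-5p (chr9:94178841-94178862, plus strand): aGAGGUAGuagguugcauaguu
let-7g-5p (chr3:52268336-52268357, minus strand): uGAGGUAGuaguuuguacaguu

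4 of the let-7 3p arms share a seed, and let-7d-3p differs from it within the seed:
let-7a-3p (chr22:46112800-46112820, plus strand and chr9:94176013-94176033, plus strand): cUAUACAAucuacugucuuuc
let-7b-3p (chr22:46113745-46113766, plus strand): cUAUACAAccuacugccuuccc
let-7f-1-3p (chr9:94176409-94176430, plus strand): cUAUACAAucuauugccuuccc
miR-98-3p (chrX:53556241-53556262, minus strand): cUAUACAAcuuacuacuuuccc
let-7d-3p (chr9:94178895-94178916, plus strand): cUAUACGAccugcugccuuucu

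The 6 tested members of the miR-17 seed come from 3 loci on chromosomes 7, 13 and X, and 5 of them fell in both clones, all but miR-20a-5p. miR-363-3p, with the seed of miR-92a-3p, fell furthest of these in mutant_2:
miR-17-5p (chr13:91350618-91350640, plus strand): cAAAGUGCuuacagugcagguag
miR-20a-5p (chr13:91351072-91351094, plus strand): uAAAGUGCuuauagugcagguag
miR-20b-5p (chrX:134169850-134169872, minus strand): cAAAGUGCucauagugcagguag
miR-106a-5p (chrX:134170244-134170266, minus strand): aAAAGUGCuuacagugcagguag
miR-106b-5p (chr7:100094043-100094063, minus strand): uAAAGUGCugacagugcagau
miR-93-5p (chr7:100093815-100093837, minus strand): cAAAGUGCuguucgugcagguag
miR-363-3p (chrX:134169382-134169403, minus strand): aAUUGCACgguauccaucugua
miR-92a-3p (chr13:91351361-91351382, plus strand and chrX:134169544-134169565, minus strand): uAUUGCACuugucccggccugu

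In the miR-200 family 3 members share a seed, of which miR-200b-3p and miR-429 lie in 1 cluster on chromosome 1 and fell in both clones:
miR-200b-3p (chr1:1167160-1167181, plus strand): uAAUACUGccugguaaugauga
miR-429 (chr1:1169055-1169076, plus strand): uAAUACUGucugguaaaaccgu
miR-200c-3p (chr12:6963742-6963764, plus strand): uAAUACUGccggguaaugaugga

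Among the miRNAs that rose in both clones, miR-132-3p and miR-212-3p share a seed and miR-301a-3p and miR-301b-3p share another. The seed of miR-34b-5p is that of miR-34a-5p moved by 1 base. The last 3 are 3p arms of hairpins listed as mirtrons, a class made by splicing in place of Drosha, which was not tested for each:
miR-132-3p (chr17:2049929-2049950, minus strand): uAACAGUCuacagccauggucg
miR-212-3p (chr17:2050290-2050310, minus strand): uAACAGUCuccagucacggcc
miR-301a-3p (chr17:59151149-59151171, minus strand): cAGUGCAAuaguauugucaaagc
miR-301b-3p (chr22:21653025-21653047, plus strand): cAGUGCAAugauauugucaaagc
miR-34a-5p (chr1:9151735-9151756, minus strand): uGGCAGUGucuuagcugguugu
miR-34b-5p (chr11:111512950-111512972, plus strand): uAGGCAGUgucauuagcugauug
miR-1226-3p (chr3:47849608-47849629, plus strand): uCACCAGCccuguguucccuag
miR-1228-3p (chr12:57194555-57194574, plus strand): uCACACCUgccucgcccccc
miR-1229-3p (chr5:179798278-179798300, minus strand): cUCUCACCacugcccucccacag

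The 2 arms of mir-324 moved in opposite directions in both clones:
miR-324-5p (chr17:7223343-7223364, minus strand): cGCAUCCCcuagggcauuggug
miR-324-3p (chr17:7223308-7223330, minus strand): cCCACUGCcccaggugcugcugg

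Of the 656 miRNAs tested, 143 were higher (21.8%) and 155 lower (23.6%) in mutant_1 than in wildtype, and 125 were higher (19.1%) and 110 lower (16.8%) in mutant_2, by edgeR's quasi-likelihood test at a Benjamini-Hochberg adjusted p below 0.01. Both comparisons use the same 4 wildtype libraries. In both clones 70 miRNAs were higher (10.7%) and 57 lower (8.69%), and 23 were called in opposite directions (3.51%). Some tested names had identical values and each was counted, such as miR-3180 and miR-3180-3p among the 70. The same holds for miR-365a-3p and miR-365b-3p among the 23. The miRNAs that rose did so by a median log2 change of 1.36 in mutant_1 and 1.18 in mutant_2, and 40 of the 70 rose at least 2-fold in each clone. The falls were smaller, at medians of -0.91 and -0.80 with 15 of 57 at least 2-fold, but they lay among more abundant miRNAs, with a median level of 155 CPM against 18.6 CPM for those that rose and 13.6 CPM for all tested. Over all tested miRNAs the median log2 change was -0.04 in mutant_1 and 0.09 in mutant_2. All 8 mutant libraries lay above the wildtype range for 65 of the 70 and below it for 51 of the 57. Over all tested miRNAs this held for 76 (11.6%) and 75 (11.4%). The 70 and 57 were called from these same libraries, so their separation follows in large part from the choice and is no further support. The clones themselves differed at 129 miRNAs higher (19.7%) and 135 lower (20.6%) in mutant_1 than in mutant_2, among them 21 of the 70 and 24 of the 57.

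**Figure D1:**
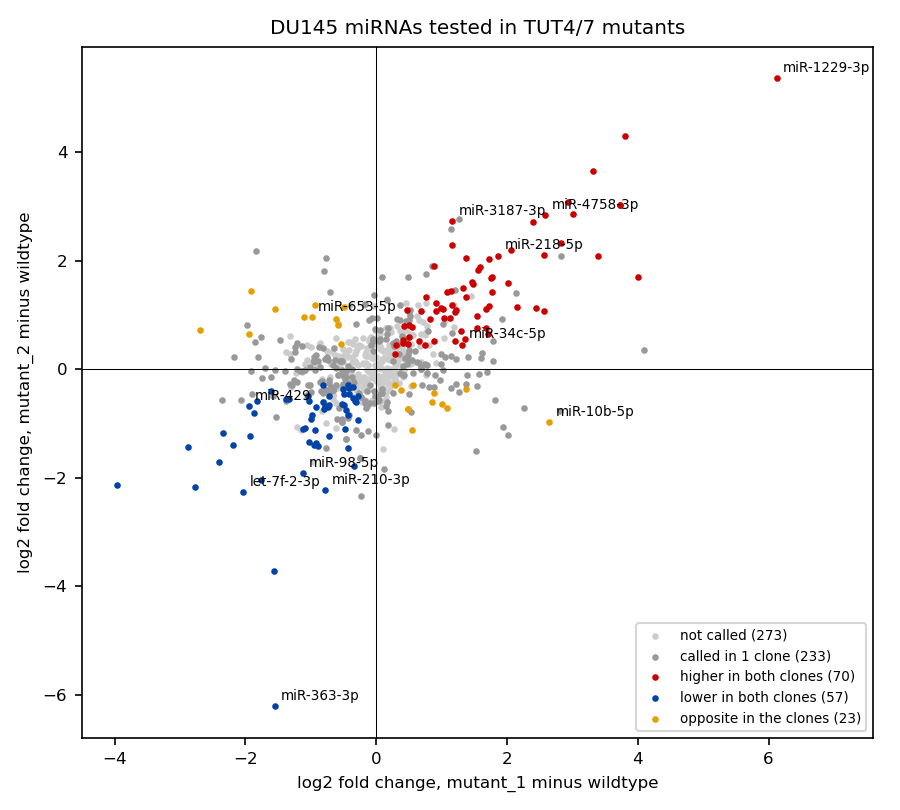
Each point is 1 of the 656 tested miRNAs, with its log2 fold change in mutant_1 on the x axis and in mutant_2 on the y axis, both against the same 4 wildtype libraries. Red points (70) were higher and blue points (57) lower in both clones at an adjusted p below 0.01, orange points (23) moved in opposite directions, and miR-1229-3p and miR-363-3p lie furthest out.

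Of the 4 clusters that fell in both clones by the arms matched to them, 3 hold let-7 genes. These 3 met the rule for a described cluster (at least 3 tested members within 10 kb steps, with 2 in 3 or more of them called in both clones in 1 direction). The other, mir-200b~mir-429, met it only because the arms of mir-200a were not matched to it. The let-7a-1let-7f-1let-7d cluster (chr9:94175957-94178920, plus strand) had 5 of 6 members down, with median log2 changes of -0.70 in mutant_1 and -1.11 in mutant_2. The let-7a-3mir-4763let-7b cluster (chr22:46112749-46113768, plus strand) had 4 of 4 tested members down, at -0.82 and -1.28. The mir-98~let-7f-2 cluster (chrX:53556223-53557274, minus strand), which lies in an intron of the ubiquitin ligase gene HUWE1, had 3 of 3 down, at -1.12 and -1.92. let-7a-5p, let-7a-3p and let-7f-5p are made by more than 1 of these loci, and their reads cannot be assigned to one. With DESeq2 the first cluster had 4 of 6 and the second 3 of 4 members down, and the third was unchanged.

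miR-98-5p was read at 2362, 2234, 2282 and 2416 CPM in wildtype, 1010.4, 1053, 993 and 1221 in mutant_1 and 621, 602, 599 and 641 in mutant_2. The 3 groups did not overlap, and both clones were lower, with log2 changes of -1.12 (SE 0.08, adjusted p = 9.68e-10) and -1.92 (SE 0.08, adjusted p = 3.72e-13). Its 3p arm stood at 36.4, 44.7, 45.5 and 36.4 CPM in wildtype, 10.7, 13.6, 10.9 and 12.9 in mutant_1 and 9.33, 9.35, 9.03 and 12.4 in mutant_2. All 8 mutant libraries were under the lowest wildtype library, at log2 changes of -1.76 (SE 0.14, adjusted p = 3.66e-09) and -2.03 (SE 0.14, adjusted p = 6.66e-10). let-7f-2-3p, from the hairpin next to mir-98, was read at 17.2, 29.1, 26.7 and 23.97 CPM in wildtype, 5.06, 4.66, 6.56 and 7.43 in mutant_1 and 3.57, 4.78, 5.42 and 6.79 in mutant_2. No mutant library reached the wildtype range, and the changes were -2.03 (SE 0.20, adjusted p = 5.77e-08) and -2.26 (SE 0.21, adjusted p = 2.67e-08).

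The abundant let-7 5p arms also fell. let-7a-5p was read at 23865, 23440.4, 24964 and 24846 CPM in wildtype, 18321, 21722, 19868 and 19829.6 in mutant_1 and 11932, 14259, 12120.2 and 12601 in mutant_2. The groups were in order with no overlap, at log2 changes of -0.28 (SE 0.08, adjusted p = 0.00369) and -0.93 (SE 0.08, adjusted p = 6.43e-09). let-7f-5p was read at 20941, 21754, 23122 and 23285 CPM in wildtype, 15001, 16898, 15788 and 16681 in mutant_1 and 9672, 10636, 10202 and 10845 in mutant_2. It fell by 0.47 in mutant_1 and by 1.11 in mutant_2 on the log2 scale, again without overlap (adjusted p = 1.66e-05 and 2.28e-10). let-7b-5p stood at 2040.3 ± 159.8 CPM in wildtype, 1236 ± 148 in mutant_1 and 871 ± 132 in mutant_2, with log2 changes of -0.72 (SE 0.11, adjusted p = 1.04e-05) and -1.23 (SE 0.11, adjusted p = 1.55e-08). For miR-98-5p, let-7a-5p, let-7f-5p and let-7b-5p, mutant_2 was lower than mutant_1 by the test between clones (log2 difference 0.80, 0.65, 0.64 and 0.50, with adjusted p of at most 0.000569).

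The other 5p arms were not called in both clones. let-7d-5p stood at 2255 to 2677 CPM in wildtype, 2492 to 2951 in mutant_1 and 1776 to 2358 in mutant_2, and let-7g-5p at 9616 to 10508, 9661 to 10394 and 8623 to 8887 CPM, with all mutant_2 libraries of let-7g-5p below the wildtype range. Neither passed the test in a clone, with let-7d-5p at 0.18 (SE 0.09, adjusted p = 0.118) and -0.28 (SE 0.09, adjusted p = 0.0203). let-7i-5p fell in mutant_1, at -0.72 (SE 0.08, adjusted p = 2.51e-07), and stood at -0.25 (SE 0.08, adjusted p = 0.0134) in mutant_2. The group I members let-7c-5p and let-7e-5p, from precursors with a 2-base overhang, fell in mutant_2 at -1.12 (SE 0.12, adjusted p = 1.9e-07) and -0.60 (SE 0.09, adjusted p = 1.94e-05), and stood at -0.31 and 0.17 in mutant_1 (adjusted p = 0.0273 and 0.125). In all, 3 of 6 group II 5p arms fell in both clones (medians -0.59 and -0.69), none of the 2 group I arms (medians -0.07 and -0.86), and let-7a-5p, which comes from both groups, fell in both. The share over all tested miRNAs was 8.69%. These counts moved with the scaling, since 4 of 6 group II arms fell in both clones with RLE or upper-quartile factors and with DESeq2, 1 of 2 group I arms did with upper-quartile factors or library totals, and let-7a-5p was not called in both clones with DESeq2. Whether the groups I and II differ was not tested.

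Of the let-7 and miR-98 3p arms, 6 of 10 were lower in both clones, against 8.69% of all tested miRNAs. The medians of the 10 were -0.94 and -1.22, and none of these arms was higher in both. let-7a-3p, the most abundant of them, was read at 315, 418, 387 and 332 CPM in wildtype, 158.3, 179.5, 182 and 190.2 in mutant_1 and 133, 149.5, 153 and 140.4 in mutant_2. All mutant libraries lay below wildtype, at -1.03 (SE 0.10, adjusted p = 5.62e-08) and -1.34 (SE 0.10, adjusted p = 2.63e-09). let-7d-3p fell as well, at -0.93 (SE 0.13, adjusted p = 4.97e-06) and -1.11 (SE 0.13, adjusted p = 8.31e-07), although let-7d-5p of the same hairpin was called in neither clone. let-7b-3p changed by -0.91 and -1.35, and let-7f-1-3p by -0.95 and -1.39. The other 4 were let-7a-2-3p, which rose in mutant_1 only (0.98, SE 0.19, adjusted p = 0.00023) and stood at -0.19 (SE 0.20, adjusted p = 0.447) in mutant_2, let-7e-3p, which stood at -0.42 (SE 0.15, adjusted p = 0.025) in mutant_1 and fell in mutant_2 (-0.89, SE 0.16, adjusted p = 9.74e-05), let-7i-3p, which fell in mutant_1 (-1.01, SE 0.14, adjusted p = 4.9e-06) and stood at -0.28 (SE 0.14, adjusted p = 0.0991) in mutant_2, and let-7g-3p at 1.37 to 5.02 CPM, with 0.77 and 0.79 and no call.

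**Figure D2:**
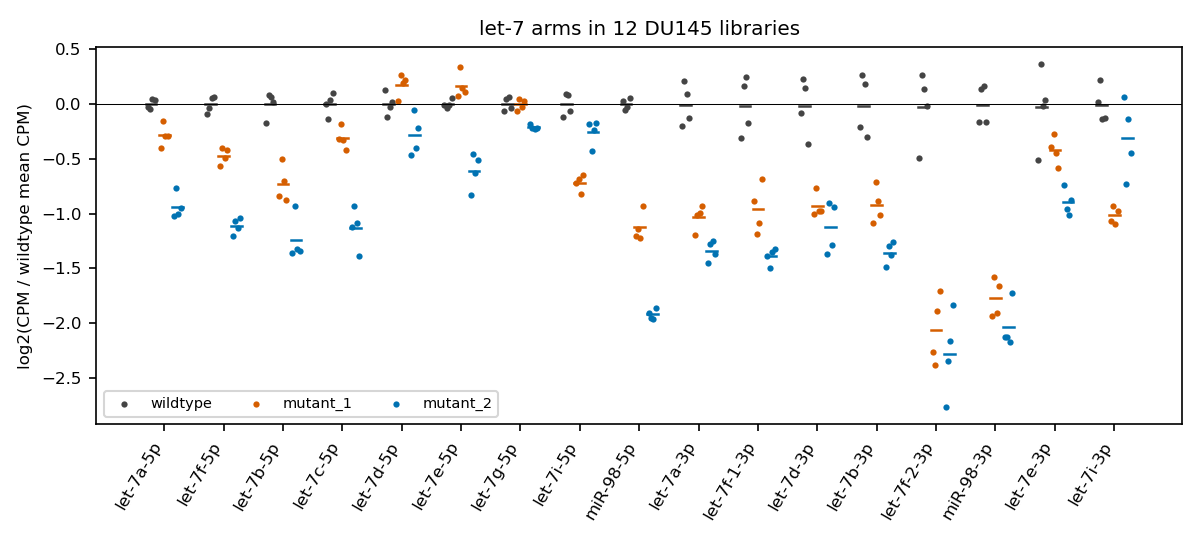
The y axis gives the log2 ratio of each library's CPM to the wildtype mean for 17 arms of let-7 and miR-98. Not drawn are let-7a-2-3p, which rose in mutant_1, and let-7g-3p, which was called in neither clone. Points are libraries (4 per group), short lines are group means, and miR-98-3p and let-7f-2-3p show the lowest mutant values while let-7g-5p and let-7d-5p stay near the wildtype level.

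In wildtype cells 3 of the let-7 and miR-98 3p arms carried a U tail on most reads. Of the reads of miR-98-3p, 73.98% ± 1.65 carried a 3′ U tail in wildtype, 0.384% ± 0.450 in mutant_1 and 2.71% ± 1.75 in mutant_2, while an A tail was carried by 3.19% ± 1.34, 42.1% ± 5.07 and 37.1% ± 6.74. For let-7f-1-3p the U share went from 66.02% ± 1.82 to 0.730% ± 0.843 and 1.77% ± 1.65, and for let-7b-3p from 58.2% ± 3.65 to 0.664% ± 0.596 and 1.35% ± 0.701. Of the wildtype reads of let-7a-3p and let-7d-3p, 0.450% ± 0.0890 and 0.643% ± 0.102 carried a U tail, and of those of miR-760, 56.1% ± 6.36. Tail shares were not tested.

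**Figure D3:**
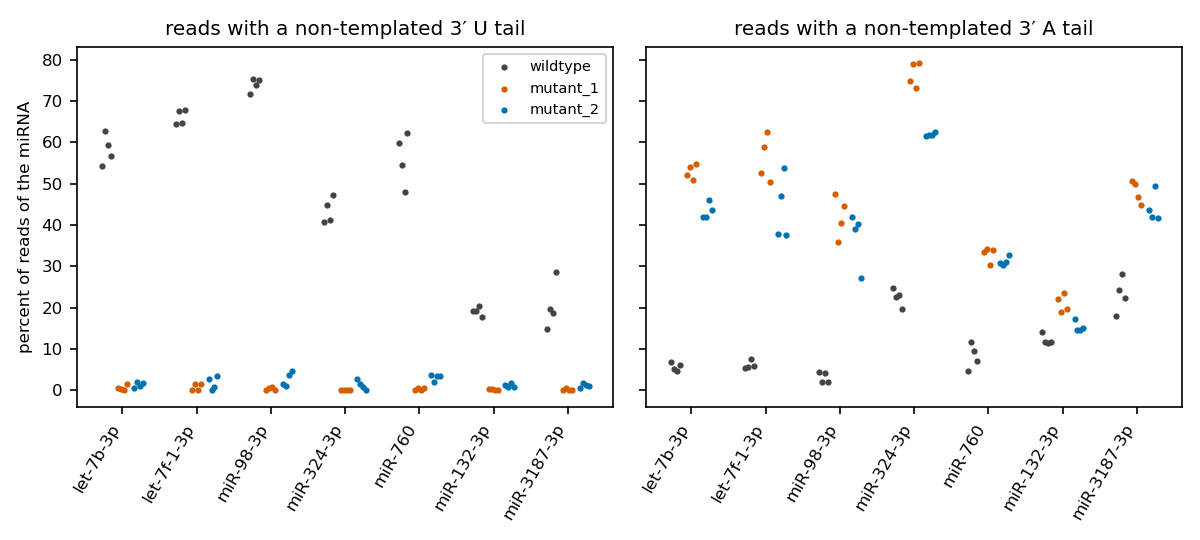
The y axes give the percent of reads of a miRNA that carry a non-templated 3′ U tail (left) or A tail (right), and each point is 1 library. In all 7 miRNAs the U share of the mutant libraries lies near 0 and the mean A share of both clones lies above that of wildtype.

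The miR-200 family, which maintains the epithelial state by repressing ZEB1 and ZEB2, fell mainly in mutant_1. All 9 tested arms were lower in mutant_1, against 3 of 9 in mutant_2, and 8 of 9 were lower in mutant_1 than in mutant_2 by the test between clones. For all tested miRNAs these 3 shares were 23.6%, 16.8% and 20.6%. The medians over the 9 arms were -1.60 in mutant_1 and -0.14 in mutant_2. The mir-200b~mir-429 cluster (chr1:1167104-1169087, plus strand) had 2 of 3 arms matched to it down in both clones. The hairpin mir-200a, which lies between these, was not matched to the cluster, so its 2 arms are not in that count. With both counted, the cluster would not reach the 2 in 3 of the rule. miR-200b-3p was read at 6348, 6236, 5862 and 5605 CPM in wildtype, 1807, 1885, 1597 and 1518 in mutant_1 and 4131, 3900.0, 3829.6 and 4193 in mutant_2. The 3 groups did not overlap, with mutant_1 lowest, at -1.82 (SE 0.09, adjusted p = 1.86e-12) and -0.58 (SE 0.08, adjusted p = 9.84e-06). miR-429 was read at 1763, 1711, 1604 and 1554 CPM in wildtype, 458, 415, 424 and 426 in mutant_1 and 1202, 839, 1052 and 1062 in mutant_2, with mutant_1 lowest and no overlap, and changed by -1.94 (SE 0.10, adjusted p = 7.04e-12) and -0.67 (SE 0.10, adjusted p = 1.06e-05). miR-200a-3p, the third to fall in both, changed by -1.61 and -0.40, and miR-200a-5p was called in 1 clone. On chromosome 12, miR-200c-3p fell in mutant_1 (-1.21, SE 0.10, adjusted p = 4.97e-09) and stood at 0.01 (SE 0.10, adjusted p = 0.938) in mutant_2.

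The miR-17 seed family, which promotes cell cycle entry and is induced by MYC, fell, for most members by a small amount. Of its 6 members 5 were lower in both clones, with medians of -0.41 and -0.47. With RLE factors and with DESeq2 all 6 were, and when libraries were scaled by their totals alone, 2 of the 6 were. miR-93-5p, the most abundant, was read at 6579.6, 6679, 6445 and 6500.2 CPM in wildtype, 5473, 5150.5, 4651 and 5141 in mutant_1 and 4745, 4404, 4390.1 and 4594 in mutant_2. All mutant libraries lay below wildtype, at -0.36 (SE 0.07, adjusted p = 0.000289) and -0.53 (SE 0.07, adjusted p = 6.09e-06). miR-106b-5p, which lies with it in the replication gene MCM7, changed by -0.28 and -0.48, and miR-25-3p by -0.49 and -0.46. miR-17-5p changed by -0.41 and -0.35, and miR-20a-5p by -0.50 (SE 0.09, adjusted p = 0.000136) and -0.31 (SE 0.09, adjusted p = 0.0106). In the mir-17~mir-92a cluster as a whole 2 of 11 arms fell in both clones, miR-17-5p and miR-19a-3p, and 7 fell in mutant_1 against 2 in mutant_2. Of all tested miRNAs 8.69% were lower in both clones. With RLE factors and with DESeq2 4 of the 11 fell in both clones, and with library totals 0 of 11.

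The paralogous mir-106a~mir-363 cluster on the X chromosome held the deepest fall in mutant_2 among miRNAs at 10 CPM or more. miR-363-3p was read at 47.5, 53.8, 46.4 and 50.1 CPM in wildtype, 16.7, 16.9, 16.6 and 17.5 in mutant_1 and 0.732, 0.435, 0.774 and 0.679 in mutant_2. It was lower in mutant_1 and close to absent in mutant_2, with no overlap between any of the groups, at -1.55 (SE 0.12, adjusted p = 1.19e-09) and -6.21 (SE 0.17, adjusted p = 2.45e-16). miR-20b-5p stood at 13.8, 13.96, 15.3 and 15.8 CPM in wildtype, 4.65, 4.30, 6.56 and 4.43 in mutant_1 and 1.01, 1.41, 0.774 and 1.22 in mutant_2, again in 3 separate ranges, and changed by -1.57 (SE 0.18, adjusted p = 2.77e-07) and -3.72 (SE 0.21, adjusted p = 2.86e-11). The clones differed by 4.66 (SE 0.19, adjusted p = 1.73e-13) and 2.15 (SE 0.24, adjusted p = 2.16e-07), mutant_1 minus mutant_2. The mutant_2 levels of both rest on few reads per library, so an SE taken from F can be too small there. miR-106a-5p of the same cluster changed by -0.41 and -0.45. The sequences of miR-106a-5p, miR-20b-5p and miR-17-5p are close to identical, so the assignment of reads among them is uncertain.

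Among the risers, the miR-34/miR-449 family, whose main members are induced by p53, had 6 of 8 arms higher in both clones and all 8 higher in mutant_1, with medians of 1.38 and 0.75. Those shares were 10.7% and 21.8% over all tested miRNAs. The mir-34b~mir-34c cluster (chr11:111512938-111513515, plus strand) had 3 of 3 matched arms up. miR-34c-5p was read at 636, 730.3, 593 and 659 CPM in wildtype, 1620.5, 1511, 1489 and 1886 in mutant_1 and 1004, 689, 923 and 971 in mutant_2. mutant_1 lay above both other groups, while 1 mutant_2 library fell within the wildtype range, and the changes were 1.31 (SE 0.11, adjusted p = 7.9e-09) and 0.45 (SE 0.11, adjusted p = 0.00243). miR-34b-5p stood at 54.9 ± 3.09, 140.4 ± 19.8 and 81.3 ± 15.97 CPM and changed by 1.35 and 0.56. miR-34a-5p, from a locus of its own on chromosome 1, was read at 99.2, 129, 132 and 195 CPM in wildtype, 246, 324, 317 and 255 in mutant_1 and 225, 299.5, 309 and 232 in mutant_2. All 8 mutant libraries were above the highest wildtype library, at 1.04 (SE 0.16, adjusted p = 2.14e-05) and 0.94 (SE 0.16, adjusted p = 9.23e-05). The 34b and 34c arms were higher in mutant_1 than in mutant_2 (log2 difference 0.56 to 0.86), whereas for miR-34a-5p the difference was 0.10 (SE 0.16, adjusted p = 0.626). miR-449a and miR-449c-5p, with like seeds, rose in mutant_1 at 1.41 and 1.92, from at most 1.62 CPM in wildtype.

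The mir-132~mir-212 cluster (chr17:2049908-2050380, minus strand), known as a target of CREB in neurons, had all 4 arms up, with medians of 1.73 and 1.27. miR-132-3p was read at 55.96, 65.8, 58.7 and 80.9 CPM in wildtype, 202, 263, 198 and 179 in mutant_1 and 107, 132, 113 and 92.9 in mutant_2. The 3 groups did not overlap and mutant_1 was highest, at 1.69 (SE 0.14, adjusted p = 5.22e-09) and 0.77 (SE 0.14, adjusted p = 0.00014). miR-212-5p was read at 2.54, 6.47, 4.49 and 5.22 CPM in wildtype, 15.99, 21.4, 15.1 and 11.98 in mutant_1 and 11.8, 14.1, 13.3 and 11.1 in mutant_2. Both clones lay above wildtype, at 1.77 (SE 0.22, adjusted p = 1.32e-06) and 1.42 (SE 0.22, adjusted p = 3.25e-05). miR-212-3p changed by 2.02 and 1.59, and miR-132-5p by 1.68 and 1.11.

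Of 6 tested arms of hairpins listed as mirtrons 4 were higher in both clones, both arms of mir-1226 among them, and none was lower (medians over the 6 of 1.30 and 1.21). The shares over all tested miRNAs were 10.7% higher and 8.69% lower. miR-1229-3p had the largest rise of all tested miRNAs in both clones. It was read at 1.41, 2.16, 4.12 and 1.21 CPM in wildtype, 154, 186, 148 and 147 in mutant_1 and 85.04, 117, 85.4 and 85.8 in mutant_2. No mutant library came near the wildtype range, at 6.13 (SE 0.23, adjusted p = 6.13e-14) and 5.36 (SE 0.23, adjusted p = 3.57e-13). miR-1226-3p rose by 1.22 and 1.08, miR-1226-5p by 1.73 and 2.04, and miR-1228-3p by 1.37 and 1.33, all from group means under 5 CPM in wildtype. miR-877-5p rose in mutant_2 (0.88, SE 0.15, adjusted p = 6.81e-05) and stood at 0.45 (SE 0.15, adjusted p = 0.0151) in mutant_1, and miR-877-3p was called in neither clone, at 0.68 (SE 0.37, adjusted p = 0.127) and 1.08 (SE 0.35, adjusted p = 0.0159).

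**Figure D4:**
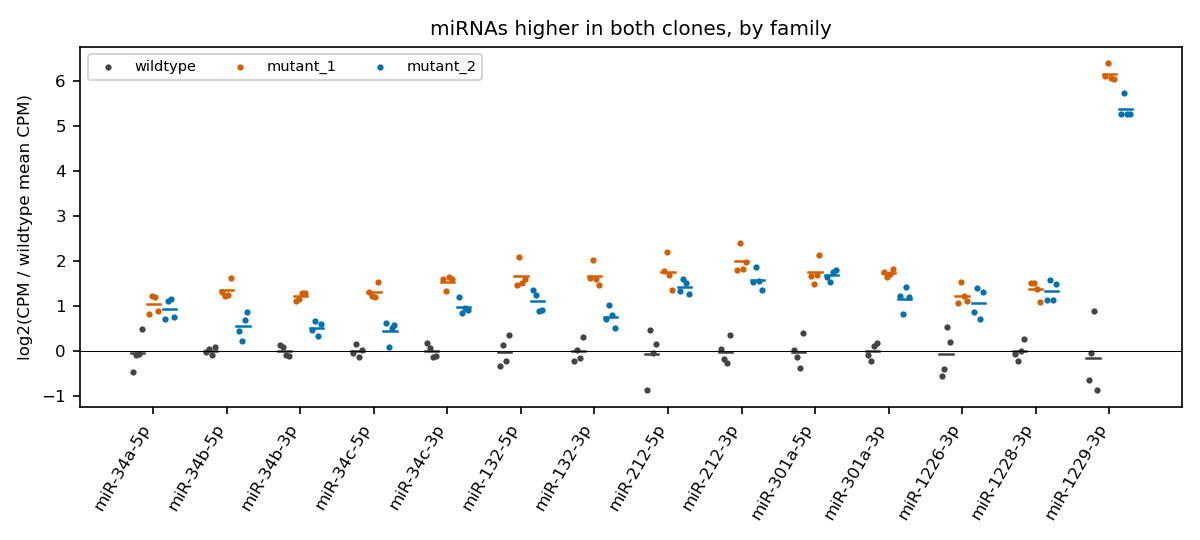
The y axis gives the log2 ratio of each library's CPM to the wildtype mean for 14 arms of the miR-34, mir-132~mir-212, mir-301a and mirtron groups. They were chosen among the arms called higher in both clones. Points are libraries and short lines are group means. The mutant means lie above wildtype throughout by that choice, and miR-1229-3p is highest.

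In the miR-130/miR-301/miR-454 family, which shares the seed AGUGCAA in its 3p arms, the 4 arms of mir-301a and mir-301b rose in both clones and the 5 others did not, and with RLE factors and with DESeq2 3 of the 9 arms did. Higher in both clones were 10.7% of all tested miRNAs. miR-301a-3p was read at 71.8, 65.6, 81.8 and 86.5 CPM in wildtype, 256, 239, 248 and 268 in mutant_1 and 176, 135, 204 and 175 in mutant_2. Its groups did not overlap, at 1.73 (SE 0.12, adjusted p = 5.49e-10) and 1.17 (SE 0.12, adjusted p = 1.29e-07). miR-301a-5p stood at 32.4, 28.8, 24.4 and 41.9 CPM in wildtype, 100.5, 89.8, 103 and 138 in mutant_1 and 99.1, 91.7, 108 and 110.5 in mutant_2 and rose by 1.76 and 1.68, with both clones above wildtype. miR-454-3p, whose hairpin also lies in SKA2 on chromosome 17, stood at -0.04 (SE 0.08, adjusted p = 0.727) in mutant_1 and fell in mutant_2 (-0.39, SE 0.08, adjusted p = 0.00048). miR-130a-3p and miR-130b-3p were called in neither clone.

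The remaining large rises came from hairpins outside these groups. miR-218-5p, encoded in introns of the guidance genes SLIT2 and SLIT3, was read at 6.06, 9.78, 10.8 and 9.77 CPM in wildtype, 35.7, 38.4, 30.01 and 29.9 in mutant_1 and 46.8, 35.2, 39.7 and 34.6 in mutant_2. It was higher in all 8 mutant libraries, at 1.87 (SE 0.17, adjusted p = 9.5e-09) and 2.10 (SE 0.17, adjusted p = 2.89e-09). miR-628-5p rose by 1.59 (SE 0.14, adjusted p = 9.78e-09) and 1.88 (SE 0.14, adjusted p = 1.39e-09) from a wildtype range of 11.6 to 20.9 CPM, and its 3p arm by 1.15 and 1.19. miR-139-5p, from an intron of PDE2A, stood at 11.8 to 17.3 CPM in wildtype, 44.7 to 77.3 in mutant_1 and 25.1 to 45.2 in mutant_2 and rose (log2 2.15 and 1.16). miR-4758-3p rose by 2.58 and 2.84, from a wildtype range of 1.995 to 2.54 CPM. miR-3187-3p and miR-760 rose further in mutant_2 (2.73 and 1.91) than in mutant_1 (1.16 and 0.89), and both differences between the clones passed the test. With both arms higher in both clones there were 12 hairpins out of 175 with both arms tested, and with both arms lower 7. Hairpins that share both mature arms were counted separately. The same reads of let-7a-5p and let-7a-3p therefore enter the 7 for both let-7a-1 and let-7a-3.

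The most abundant miRNAs that rose did so by little. miR-128-3p, best known as a brain miRNA, was read at 1881, 2089.8, 1976 and 2038 CPM in wildtype, 2430.2, 2584, 2211 and 2529 in mutant_1 and 2456, 2494, 2395 and 2342 in mutant_2. All 8 mutant libraries lay above wildtype, but the changes of 0.29 (SE 0.08, adjusted p = 0.00312) and 0.28 (SE 0.08, adjusted p = 0.00511) lost their call in 22 of the alternatives tried over both clones. In the mir-424~mir-503 cluster on the X chromosome 2 of 9 listed arms rose in both clones, miR-450a-5p (0.55 and 0.77) and miR-450b-5p, which was read at 448, 543, 729 and 750.5 CPM in wildtype, 897, 912, 809.6 and 879 in mutant_1 and 1222, 999, 1132 and 1020.1 in mutant_2. The changes of miR-450b-5p were 0.50 (SE 0.13, adjusted p = 0.00247) and 0.82 (SE 0.13, adjusted p = 2.82e-05), with both clones above wildtype. The arm miR-450a-2-3p, which the list leaves out, was also called higher in both clones, at a mean of 18.97 CPM over the 12 libraries. In the mir-188~mir-660 cluster, in an intron of the chloride channel gene CLCN5, 5 of 15 arms rose in both clones, with medians of 0.23 and 0.35 over the cluster. miR-502-3p, for example, changed by 0.41 and 0.49. With libraries scaled by their totals alone none of the 15, and none of the 9 listed arms of mir-424~mir-503, was called in both clones. With TMM factors 10.7% of all tested miRNAs were higher in both clones.

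mir-324 was the only hairpin of the 175 whose arms were called in opposite directions in both clones. Uridylation of its precursor by TUT4 and TUT7 is known to move the Dicer cut and so to change which arm accumulates. miR-324-5p was read at 49.5, 39.7, 25.9 and 41.2 CPM in wildtype, 75.9, 73.9, 79.1 and 60.8 in mutant_1 and 60.6, 54.5, 59.3 and 49.02 in mutant_2. mutant_1 lay above wildtype and 1 mutant_2 library lay within its range, at 0.89 (SE 0.15, adjusted p = 5.03e-05) and 0.52 (SE 0.15, adjusted p = 0.00813). miR-324-3p was read at 32.4, 39.4, 40.02 and 41.9 CPM in wildtype, 16.7, 17.1, 19.3 and 17.5 in mutant_1 and 17.4, 18.5, 18.7 and 17.2 in mutant_2. Both clones lay below wildtype, at -1.12 (SE 0.12, adjusted p = 1.13e-07) and -1.10 (SE 0.12, adjusted p = 2.33e-07). A U tail was carried by 43.5% ± 3.13 of miR-324-3p reads in wildtype, by none in mutant_1 and by 1.26% ± 1.15 in mutant_2, and an A tail by 22.5% ± 2.16, 76.4% ± 2.99 and 61.9% ± 0.444. With DESeq2, or with its size factors in edgeR, the 5p arm was not called in both clones.

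Other falls in both clones included miR-29a-3p, a repressor of collagen genes and the most abundant faller. It was read at 24408, 31993, 29595 and 27476 CPM in wildtype, 23364, 24344, 21397 and 21544 in mutant_1 and 20273, 16563, 19294 and 19812 in mutant_2. Both clones lay below wildtype, at -0.32 (SE 0.09, adjusted p = 0.00413) and -0.58 (SE 0.09, adjusted p = 2.3e-05), although miR-29b-3p was called in neither (0.00 and -0.10) and miR-29c-3p fell in mutant_1 and rose in mutant_2. miR-210-3p, the hypoxia-induced miRNA, was read at 189, 199, 239 and 245 CPM in wildtype, 130.0, 136, 121 and 121 in mutant_1 and 40.7, 52.2, 55.9 and 38.3 in mutant_2, in 3 separate ranges, with changes of -0.78 (SE 0.12, adjusted p = 1.89e-05) and -2.22 (SE 0.13, adjusted p = 2.86e-11). miR-129-5p stood at 94.3, 131, 122 and 121 CPM in wildtype, 33.2, 28.2, 26.8 and 34.6 in mutant_1 and 56.2, 52.3, 42.6 and 49.2 in mutant_2, lowest in mutant_1, and changed by -1.93 and -1.22. Both arms of mir-378a, from an intron of PPARGC1B, fell, with miR-378a-3p at -0.81 and -0.60. miR-4454 varied between wildtype libraries, at 5.22, 30.9, 33.5 and 11.8 CPM in wildtype, 4.78, 2.99, 5.44 and 2.40 in mutant_1 and 4.85, 7.07, 6.32 and 6.93 in mutant_2. Its lowest wildtype library lay within the range of both clones, and its changes were -2.40 (SE 0.42, adjusted p = 6.01e-05) and -1.71 (SE 0.39, adjusted p = 0.00116).

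The 2 clones went in opposite directions at 23 miRNAs. miR-10b-5p, located in the HOXD cluster, was read at 64.7, 77.1, 73.3 and 66.7 CPM in wildtype, 488, 507, 418 and 356 in mutant_1 and 56.4, 41.6, 23.7 and 20.6 in mutant_2. It was higher in mutant_1 and lower in mutant_2 without overlap, at 2.65 (SE 0.22, adjusted p = 3.98e-09) and -0.97 (SE 0.22, adjusted p = 0.00101). miR-10a-5p, located in the HOXB cluster, moved the other way, at 5159.8 to 6179, 3369.5 to 4401 and 10749 to 11403 CPM (-0.61, SE 0.09, adjusted p = 1.37e-05, and 0.93, SE 0.09, adjusted p = 9.98e-08). The 3 tested arms of the mir-653~mir-489 cluster on chromosome 7 fell in mutant_1 and rose in mutant_2. miR-653-5p stood at 23.4, 25.3, 28.8 and 23.6 CPM in wildtype, 12.3, 16.1, 10.9 and 11.5 in mutant_1 and 50.7, 48.2, 59.7 and 39.4 in mutant_2, with no overlap, at -0.99 (SE 0.15, adjusted p = 1.88e-05) and 0.97 (SE 0.14, adjusted p = 1.52e-05). miR-653-3p changed by -1.10 and 0.96, and miR-489-3p by -0.94 and 1.19.

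In the miR-23miR-27miR-24 clusters 10 of 11 arms rose in mutant_1, against 21.8% of all tested miRNAs. In mutant_2 none rose and 2 fell, against 19.1% and 16.8% of all tested, so the falls are near the common share. The medians over the 11 arms were 1.14 and -0.05. All 10 differences called between the clones had mutant_1 higher, against 19.7% of all tested. miR-27b-3p, one of the most abundant miRNAs after miR-21-5p, was read at 8986, 12952, 13405 and 13944 CPM in wildtype, 39239.7, 44929.5, 37598 and 38294 in mutant_1 and 12686, 11216, 12900.3 and 10855 in mutant_2. mutant_1 lay above wildtype and mutant_2 within its range, at 1.70 (SE 0.11, adjusted p = 3.55e-10) against -0.05 (SE 0.11, adjusted p = 0.738). miR-100-5p and miR-125b-5p, which accompany let-7a-2 on chromosome 11, rose in mutant_1 (0.85 and 0.89) and fell in mutant_2 (-0.60 and -0.43).

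**Figure D5:**
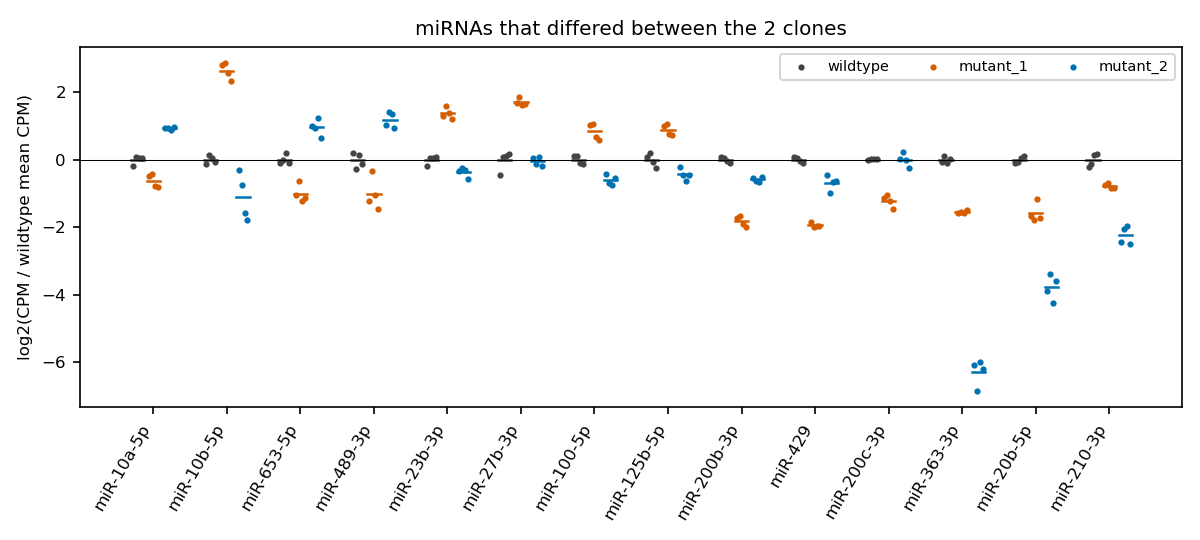
The y axis gives the log2 ratio of each library's CPM to the wildtype mean for 14 miRNAs that differed between mutant_1 and mutant_2. Points are libraries and short lines are group means, with miR-10b-5p, miR-653-5p and miR-489-3p on opposite sides of wildtype in the 2 clones and miR-363-3p lowest in mutant_2.

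The counts of the mRNA libraries gave the level of host transcripts, with 2.57% of 13839 genes tested higher and 3.35% lower in both clones. The hosts given here are only some of those tested. SLIT2, host of mir-218-1, rose in both clones, from 0.395 ± 0.381 CPM to 1.67 ± 0.507 and 1.84 ± 0.205, a log2 change of 2.15 (SE 0.43, adjusted p = 0.00126) and 2.27 (SE 0.42, adjusted p = 0.000684). Its change rests on few reads, 14 in all wildtype libraries, 68 in mutant_1 and 79 in mutant_2. HOXB3, next to mir-10a, moved in opposite directions in the clones with the same signs as miR-10a-5p, at -0.70 (SE 0.15, adjusted p = 0.00261) in mutant_1 and 1.10 (SE 0.14, adjusted p = 3.04e-05) in mutant_2. MIR210HG stood at 0.00 (SE 0.25, adjusted p = 0.99) in mutant_1 and fell in mutant_2 at -2.18 (SE 0.29, adjusted p = 4.25e-05). EVL, host of mir-342, fell at -0.91 (SE 0.14, adjusted p = 0.000188) and -0.63 (SE 0.14, adjusted p = 0.00291), with miR-342-3p at -0.99 and -0.92. TMEM164, host of mir-652, rose at 0.82 (SE 0.10, adjusted p = 2.13e-05) and 0.37 (SE 0.10, adjusted p = 0.0091), with miR-652-3p at 1.13 and 0.95. RNF130, host of mir-340, fell at -0.32 (SE 0.08, adjusted p = 0.00784) and -0.69 (SE 0.09, adjusted p = 1.91e-05), whereas miR-340-5p stood at 0.05 and -0.46 and was called in mutant_2 alone. LINC-PINT, host of mir-29a, rose in mutant_1 (0.86, SE 0.20, adjusted p = 0.00406) and stood at 0.41 (SE 0.21, adjusted p = 0.134) in mutant_2. HUWE1, MCM7, MIRLET7BHG, SKA2, PDE2A, PPARGC1B and CLCN5 were called in neither clone. HUWE1, which holds mir-98 and let-7f-2, stood at 0.05 (SE 0.10, adjusted p = 0.692) and -0.15 (SE 0.10, adjusted p = 0.266), and MCM7 at 0.51 (SE 0.25, adjusted p = 0.124) and 0.40 (SE 0.25, adjusted p = 0.232). MIRLET7BHG, at 2.0 ± 1.36 CPM in wildtype, stood at -1.04 (SE 0.48, adjusted p = 0.103) and -1.09 (SE 0.48, adjusted p = 0.0932), which did not pass the test. SKA2, host of mir-301a, stood at 0.04 (SE 0.12, adjusted p = 0.81) and -0.37 (SE 0.12, adjusted p = 0.025). PDE2A, host of mir-139, stood at 1.12 (SE 0.64, adjusted p = 0.178) and 1.95 (SE 0.58, adjusted p = 0.0157). PPARGC1B, host of mir-378a, stood at -0.58 (SE 0.17, adjusted p = 0.0158) and -0.52 (SE 0.17, adjusted p = 0.0269). CLCN5, host of mir-188~mir-660, stood at -0.28 (SE 0.13, adjusted p = 0.0895) and 0.10 (SE 0.12, adjusted p = 0.559).

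The uridylated share in wildtype cells was set beside the change in abundance. Among the 373 tested miRNAs with at least 50 reads in each wildtype library, a median of 3.28% of reads carried a U tail, against 3.62% for the 37 that rose and 2.68% for the 49 that fell in both clones. At least 5% of reads were uridylated in 35.9% of all, 37.8% of those that rose and 32.7% of those that fell. The 3p arms made up 51.4% of the 70 that rose, 45.6% of the 57 that fell and 40.5% of all tested. None of these shares was tested.

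Among the families not described so far, the miR-15/miR-16 (9 tested), miR-26 (5), miR-148/miR-152 (6) and miR-103/miR-107 (3) families and the mir-183mir-96mir-182 (6), miR-221/miR-222 (4) and miR-302~miR-367 (2) clusters had no member called in the same direction in both clones. With library totals 2 of the 6 arms of mir-183mir-96mir-182 were lower in both. In the miR-30 family 1 of 11 arms rose in both, and in the miR-181 family 1 of 8 did, while with library totals 3 of the 11 miR-30 arms did. In the miR-320 family 1 of 4 fell in both clones, miR-320a, whose hairpin does not need Drosha. In mutant_2 3 of 4 fell, while with RLE factors and with DESeq2 none of the 4 was called in both clones. Beside these counts, 10.7% of all tested miRNAs were higher and 8.69% lower in both clones. Whether any of these families departs from those shares was not tested.

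The same contrasts in other cells gave a mixed picture for these miRNAs. In IGROV1, an ovarian cancer line that expresses LIN28A, 102 miRNAs were higher (15.2%) and 135 lower (20.1%) in both of its own TUT4/7 clones, among 671 tested. Of the 70 miRNAs that rose in DU145, 25 rose in both IGROV1 clones, 3 fell in both and 9 were not tested. Of the 57 that fell, 20 fell in both IGROV1 clones, 7 rose and 3 were not tested. miR-1229-3p rose in IGROV1 by 3.69 and 4.20, and miR-98-3p fell by 1.93 and 1.03 on the log2 scale. miR-34a-5p went the other way there, at -2.12 and -0.98, as did miR-129-5p, at 3.97 and 2.54.

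In DU145 with LIN28A overexpressed, 2 of 12 libraries went against their labels. The library labelled mutant_1 replicate 2 had a mean correlation of 0.98 with wildtype and 0.94 with mutant_1 libraries, and the library labelled wildtype replicate 2 had 0.964 with wildtype and 0.979 with mutant_1. With all 12 libraries edgeR's quasi-likelihood test called 0 of 682 miRNAs in both clones (0% higher and 0% lower), against 10 higher and 6 lower at an unadjusted p below 0.05 and 0 and 0 by DESeq2, whereas mutant_2 had 8 higher (1.17%) and 9 lower (1.32%). Without those 2 libraries, a choice made after seeing the data, 32 were higher (4.54%) and 21 lower (2.98%) in both clones among 705 tested. In that fit let-7 arms were higher in both clones where they had been lower or uncalled without LIN28A, with let-7b-5p at 2.42 and 1.68, let-7d-5p at 3.88 and 3.03, and let-7f-5p at 2.27 and 1.56. With all 12 the same 3 stood at 1.49 and 1.09, 1.79 and 1.32, and 1.23 and 0.82, none past the threshold in both clones. miR-1229-3p was higher (5.65 and 4.82) and miR-363-3p lower (-1.67 and -3.84) without the 2 libraries, as in LIN28A-negative cells. Of the 70 and 57 miRNAs, 15 were higher and 14 lower, in the same direction, in both clones of this fit, and 5 of the 57 were higher.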

How the data were processed

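Small RNA was read with a kit that adds 4 random bases at each end, in 12 libraries of LIN28A-negative DU145 cells. Per the labels and the study's methods, the authors removed adapters with cutadapt and these random bases, and ran miRDeep2 with default settings on hg38. The deposited table holds raw read counts for each precursor row and sample, and 36 normalized columns, which were not used. For each mature miRNA the precursor row with the highest total was taken. 222 names had more than 1 row, 87 of them tested. Tail shares came from the deposited read counts per isomiR, made with Chimira, and host levels from the deposited HTSeq gene counts (Trimmomatic 0.39, HISAT2 2.1.0).

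Counts were tested with edgeR 4.0.16 in R 4.3.3 (filterByExpr, TMM factors, quasi-likelihood test, 1 fit of the 3 groups with no block) and called at a Benjamini-Hochberg adjusted p below 0.01, over 656 miRNAs that hold 99.98% of reads. The scripts were tested on simulated data. CPM are counts per 1000000 of the TMM-scaled library size. The SE of a log2 change is its size divided by the square root of F. It is an approximation, which can be too small for a large change that rests on few reads. Clusters join precursors within 10 kb on 1 strand, and seed families share bases 2 to 8. Named were the 10 largest rises and falls of the clone mean and the 3 most abundant in each direction among miRNAs called in both clones at a mean of 10 CPM or more, the 4 largest opposite changes, and members of listed families and described clusters. miR-628-3p, miR-450a-2-3p and the arms of mir-378a were named after their values were seen, as were the examples of names with identical values. The arms of mir-342, mir-652 and mir-340 also fall outside these rules. They were named beside hosts called in both clones, with the values known. The members and lists were chosen with earlier results of these data known. Alternatives were DESeq2 1.42.0, other scaling factors, filters and thresholds, the replicate block, other sample sets and each library left out.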

Additional observations from a re-analysis of the deposited data

Results flagged for a closer look

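Of the 30 named miRNAs, 18 differed between the 2 clones by edgeR's quasi-likelihood test at an adjusted p below 0.01, beside 129 higher (19.7%) and 135 lower (20.6%) in mutant_1 than in mutant_2 of all 656 tested. 4 of the 18, miR-10b-5p, miR-653-5p, miR-653-3p and miR-489-3p, were named for moving in opposite directions, so their difference is fixed by that choice. Values are log2 differences, mutant_1 minus mutant_2. They were higher in mutant_1 for miR-363-3p (4.66), miR-10b-5p (3.62), miR-210-3p (1.44), miR-139-5p (1.00), miR-34c-5p (0.86), miR-98-5p (0.80), miR-1229-3p (0.77), let-7a-5p (0.65), let-7f-5p (0.64) and miR-301a-3p (0.55). They were lower in mutant_1 for miR-489-3p (-2.13), miR-653-3p (-2.06), miR-653-5p (-1.96), miR-3187-3p (-1.57), miR-429 (-1.27), miR-200b-3p (-1.24), miR-760 (-1.02) and miR-129-5p (-0.71).

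In 1 fit of the 24 small RNA libraries of LIN28A-negative DU145 and IGROV1, an analysis chosen after seeing the data, the change of the clone mean against wildtype differed between the lines for 19 of the 30 named miRNAs, beside 136 higher and 120 lower of the 656 tested in DU145. The named miRNAs were chosen for large changes or high levels in DU145, or for opposite changes there. Values are the log2 change in DU145 minus that in IGROV1. The change was higher in DU145 for miR-10b-5p (2.23), miR-628-5p (2.08), miR-1229-3p (1.71), miR-301a-5p (1.34), miR-4758-3p (1.27), miR-98-5p (1.26), miR-218-5p (0.68), miR-3187-3p (0.66) and miR-301a-3p (0.53). It was lower in DU145 for miR-129-5p (-4.92), let-7f-2-3p (-1.91), miR-34c-5p (-1.38), miR-489-3p (-1.36), miR-363-3p (-1.27), miR-653-5p (-1.19), miR-653-3p (-1.15), let-7a-3p (-0.59), let-7a-5p (-0.45) and let-7f-5p (-0.44).

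In 3 of 90 groups of 4 libraries, over 30 named miRNAs, 1 library stood apart from the others by Dixon's criterion, which chance meets in about 1 of 20 groups. miR-1229-3p was at 186 CPM in mutant_1 replicate 2 against 147 to 154 CPM in the others, and at 117 CPM in mutant_2 replicate 2 against 85.0 to 85.8 CPM. miR-98-3p was at 12.4 CPM in mutant_2 replicate 4 against 9.03 to 9.35 CPM.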

How the results depend on the processing

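Of the checks on named miRNAs 1441 kept their call, 59 lost it and 0 reversed. The losses fell mostly on miR-128-3p (22), let-7a-5p (7) and miR-29a-3p. Leaving out 1 library at a time gave 60 to 71 miRNAs higher and 44 to 58 lower in both clones (lowest without wildtype replicate 3 and without wildtype replicate 2), 129 to 150 and 131 to 161 in mutant_1, 114 to 131 and 90 to 116 in mutant_2, 17 to 22 opposite, and 116 to 139 and 114 to 141 between the clones.

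The causes of the shifts that follow were not tested. With library totals only, the median log2 change of all miRNAs was -0.27 in mutant_1 and 0.36 in mutant_2, so 32.6% and 77.9% of calls were higher, against 48.0% and 53.2% with TMM. mutant_2 then had 204 higher and 58 lower, the clones differed at 52 higher and 312 lower in mutant_1 (14.3% higher, against 48.9%), and 66 were higher and 43 lower in both clones (60.6% against 55.1%), of which 52 and 34 were among the 70 and 57. With RLE factors 56.1% and with DESeq2 59.9% of differences between the clones were higher in mutant_1.

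An adjusted p of 0.05 gave 35 opposite miRNAs. A 1.5-fold minimum gave 31 lower in both clones and 13 opposite. 1 fit of all 36 libraries gave 98 lower in mutant_1, 79 higher in mutant_2, 40 higher and 27 lower in both clones, 5 opposite and 83 lower in mutant_1 than in mutant_2, whereas without the 2 libraries that go against their labels (34 libraries, chosen after seeing the data) it gave 65 and 62 in both clones. In the LIN28A-overexpressing cells, leaving out those 2 libraries gave 96 higher and 90 lower in mutant_1 against 0 and 0, 53 and 57 in mutant_2 against 8 and 9, and 32 and 21 in both clones.

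The replicate numbers were not taken to pair the samples, since not every same-numbered pair exceeded a correlation of 0.1: those of the libraries' deviations ranged from -0.145 to 0.3, with the mutant_1 and mutant_2 pairs at 0.116, 0.225, 0.015 and 0.3, and differently numbered pairs reached 0.187. With the replicate block 68 miRNAs were higher and 58 lower in both clones, 68 and 56 of them shared with the fit without it. Counts from the isomiR files gave 67 and 76, of which 54 and 52 were shared. With the 8 mutant libraries as 1 group, miR-363-3p, miR-200b-3p, miR-128-3p, miR-29a-3p and let-7a-5p and the 4 named opposite miRNAs lost their call. Below about 1 CPM, depths of 6128319 to 10665491 reads leave few reads per library, so rare arms rest on wide errors.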
